A study of Vitis vinifera with 6 samples.

Results

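The stilbene synthase genes of grapevine lie in 2 tandem clusters, and their transcript levels were compared between leaf and embryogenic callus (EC). Members were taken by identifier number, from VIT_216s0100g00750 to VIT_216s0100g01200 on chromosome 16 and from VIT_210s0042g00840 to VIT_210s0042g00930 on chromosome 10. These ranges held 45 of the 31843 genes in the count table, 35 on chromosome 16 and 10 on chromosome 10. No table used here pairs the identifiers with names or sequences, so their identity as stilbene synthases rests on the ranges, and no marker of either tissue could be checked. The libraries were 3 of young leaf and 3 of proliferating EC, all from the grapevine cultivar Chardonnay and all made from ribosome-depleted total RNA. EC is a mass of dedifferentiated cells able to form embryos. Here it was raised from anthers and kept in the dark on solid medium, and dishes were pooled for each sample, whereas the leaves came from vineyard vines, with several leaves pooled per sample. Light, culture medium and tissue therefore cannot be told apart in this comparison.

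Stilbene synthase is the enzyme that joins coumaroyl-CoA with malonyl-CoA to make resveratrol, the parent of the stilbene phytoalexins with which grapevine answers fungal attack, wounding and ultraviolet light. It uses the same substrates as chalcone synthase, the entry enzyme of flavonoid synthesis, from which stilbene synthases are thought to have evolved. In grapevine the family grew by tandem duplication, so that neighbouring members encode very similar proteins. Reads from such copies can map to several members, and how the counting step divided them between genes is not given in the sources used here. The value of any single member is therefore less certain than the sum over its cluster. Gene lengths were not used here either, so levels are compared between libraries for the same gene or cluster and not between genes.

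Counted reads ranged from 13123072 in leaf replicate 3 to 24209752 in EC replicate 3. A count of 3 corresponded to 0.229 reads per 1000000 counted reads (RPM) in leaf replicate 3 and to 0.124 to 0.137 RPM in the other libraries. Across all tested features, log2 levels in leaf replicate 3 had a Pearson's r of 0.829 and 0.815 with leaf replicates 1 and 2, which had 0.991 with each other, and the EC libraries had 0.987 to 0.992. Leaf replicate 3 thus stands apart from the other leaf libraries, and tests of single members are given with and without it. The paper reports a number of read pairs for it within the range of the other libraries. Its shares of reads mapped to the PN40024 genome and of properly paired reads were the lowest reported. The labels do not say whether the samples came from separate plants or cultures, so p-values measure the spread between these samples.

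Both clusters had fewer reads in EC than in leaf. The 35 chromosome 16 members together held 2778, 2582 and 284 counts in leaf replicates 1, 2 and 3, which is 117.5, 117.8 and 21.6 RPM. In the EC replicates they held 170, 200 and 217 counts, or 7.53, 8.98 and 8.96 RPM. All leaf libraries lay above all EC libraries, but leaf replicate 3 was much closer to EC than to the other leaf libraries. The leaf mean of 85.7 ± 55.4 RPM was 10.1-fold above the EC mean of 8.49 ± 0.831 RPM (SD, n = 3 libraries each). Without leaf replicate 3 the leaf mean was 13.9-fold above EC, whereas leaf replicate 3 alone was 2.55-fold above it, both in RPM. In a sample of mixed cells, fewer cells that express a gene and less RNA per cell cannot be told apart. No test was made on these sums, since the members were chosen with earlier results known.

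The chromosome 10 cluster was almost without reads in EC. Its 10 members together held 499, 391 and 779 counts in leaf replicates 1, 2 and 3, or 21.1, 17.8 and 59.4 RPM. In the EC replicates they held 1, 5 and 4 counts, or 0.0443, 0.224 and 0.165 RPM. Here leaf replicate 3 was the highest of the leaf libraries, and the leaf and EC libraries did not overlap. The leaf mean of 32.8 ± 23.1 RPM was 227 times the EC mean of 0.145 ± 0.0918 RPM (SD, n = 3 libraries each). Without leaf replicate 3 the ratio was 135. The EC mean rests on so few counts that these ratios give the order of size and little more.

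**Figure D1:**
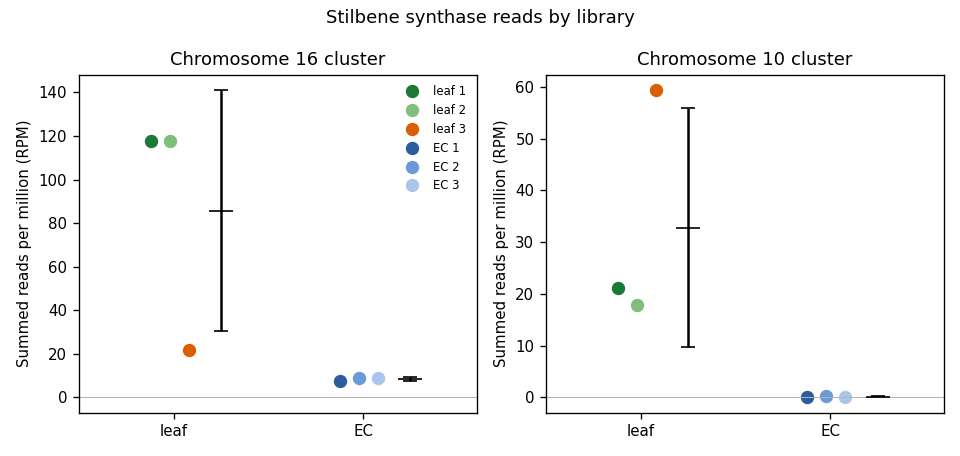
Summed RPM of the chromosome 16 cluster (left) and the chromosome 10 cluster (right) in each library, on linear axes; points are libraries and bars are the mean ± SD of 3 libraries. Leaf replicate 3 is the lowest leaf library for chromosome 16 (21.6 RPM) and the highest for chromosome 10 (59.4 RPM), and all EC libraries lie below all leaf libraries.

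The balance between the clusters differed between leaf and EC, and between leaf replicate 3 and the other leaf libraries. Chromosome 10 members made up 15.2% and 13.2% of all stilbene synthase counts in leaf replicates 1 and 2, but 73.3% in leaf replicate 3. In the EC replicates the share was 0.585%, 2.44% and 1.81%. Chromosome 16 counts were thus 5.57 and 6.60 times those of chromosome 10 in leaf replicates 1 and 2, 0.365 times in leaf replicate 3, and 40.0 to 170.0 times in EC. This ratio is taken within a library and does not depend on its scaling. In the EC replicates it rests on 1, 5 and 4 chromosome 10 counts, so its differences between EC libraries are not interpreted.

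Most members of the chromosome 16 cluster were detected in leaf. No count was found in any library for 3 members (VIT_216s0100g00970, VIT_216s0100g01060 and VIT_216s0100g01080), and VIT_216s0100g00870 had a single count, in EC replicate 1. In RPM, the leaf libraries lay above the EC libraries without overlap for 22 of the 35 members and the EC libraries above the leaf libraries for 0. Leaf replicate 3 had the lowest TMM factor (0.658), so such overlaps depend on the scaling. Of all features with a count, 21.9% lay in leaf above EC without overlap. Leaf replicates 1 and 2 both lay above every EC library for 31 members (background 34.9%), and the members that overlapped did so through leaf replicate 3, apart from those without leaf counts. In EC, 14 members had at most 3 counts in every library and 4 members had at least 10 counts in every library. Leaf replicates 1 and 2 were close to each other: of the 30 members with at least 10 leaf counts, 28 differed by less than 2-fold between them. The exceptions were VIT_216s0100g00990, with 63 and 157 counts, and VIT_216s0100g01070, with 112 and 32.

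**Figure D2:**
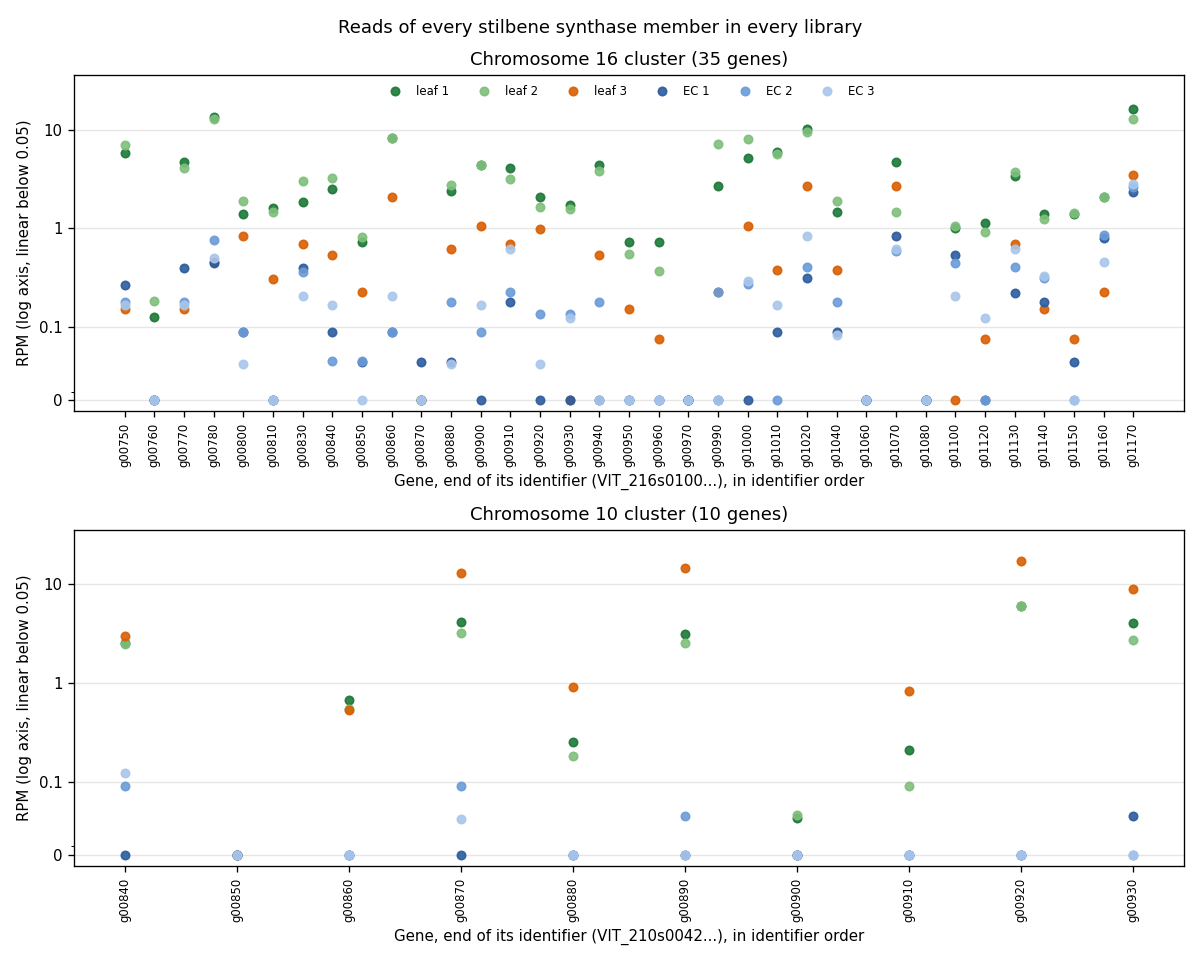
RPM of each member (horizontal axis, in identifier order) in each of the 6 libraries, on a log axis that is linear below 0.05 RPM so that 0 can be shown; points of equal value cover each other. On chromosome 16, leaf replicates 1 and 2 lie above EC for 31 of 35 members with leaf replicate 3 above every EC library for 22, and on chromosome 10 no EC library exceeds 3 counts for any member.

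Single members were tested in one model of all genes and TE families (edgeR quasi-likelihood test). Benjamini-Hochberg adjustment was over 21550 features, or over 28238 with no filter on low counts and 22537 without leaf replicate 3. Calls required an adjusted p below 0.05 together with a 2-fold or larger change. With no filter on low counts, 26 of the 32 chromosome 16 members with a count were called, all with the lower level in EC, against 21.8% of all features. The median log2 fold change of the 32 was −4.47, or −4.20 with the members at 0 counts in EC set at their bound, against −0.08 for all features. With the filter, 17 members were tested and 15 were called lower in EC, where 25.1% of all features tested were called lower and 17.3% higher. Without leaf replicate 3, 29 members were tested and 29 were lower in EC (background 29.4%), and 15 of them were the members called with all libraries. Members that are low in EC pass such a filter only through leaf, which fixes their direction, so the counts after filtering are a description and are not read against the background. The number called higher in EC was 0 in each of these fits, and at an unadjusted p under 0.05 it was also 0, as it was with DESeq2, which called 28 of 31 lower (background 27.6%).

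VIT_216s0100g00780 was among the members with the most leaf reads and the widest gap inside leaf. It had 318 and 283 counts in leaf replicates 1 and 2, 6 in leaf replicate 3, and 10, 17 and 12 in the EC replicates. In RPM, leaf replicate 3 (0.457) fell inside the range of EC (0.443 to 0.763). Over library sizes scaled by TMM factors, as in the fit, leaf replicate 3 would lie above every EC library. Its log2 fold change was −4.28 with a standard error of 1.09 (adjusted p = 0.0203, edgeR), and without leaf replicate 3 it was −4.80 (adjusted p = 4.74e-06, edgeR). It no longer passed with limma-voom, without leaf replicate 1 or without any one of the EC libraries, where the adjusted p was 0.0524 to 0.0832 (edgeR and limma).

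VIT_216s0100g00750 and VIT_216s0100g00770, which stand beside it at the start of the cluster, were also far lower in leaf replicate 3 than in the other leaf libraries. In RPM, leaf replicate 3 (0.152 in both) lay below every EC library, but this rests on 2 counts. With TMM factors of 0.658 in leaf replicate 3 and 1.15 to 1.19 in EC, that order is not kept. VIT_216s0100g00750 had 136, 154 and 2 counts in leaf and 6, 4 and 4 in EC. VIT_216s0100g00770 had 110, 90 and 2 counts in leaf and 9, 4 and 4 in EC. Neither passed the filter with all libraries. Without leaf replicate 3, their log2 fold changes were −5.21 and −4.39 (adjusted p = 8.92e-06 and 5.98e-05, edgeR).

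VIT_216s0100g01020 kept a clearer gap. It had 242, 207 and 35 counts in leaf and 7, 9 and 20 in EC, so that leaf replicate 3 (2.67 RPM) stayed above the highest EC library (0.826 RPM). Its log2 fold change was −4.22 (standard error 0.58, adjusted p = 0.00264, edgeR), or −4.50 without leaf replicate 3 (adjusted p = 3.27e-05, edgeR), and it passed under each alternative that tested it. In the middle of the cluster, VIT_216s0100g00990 and VIT_216s0100g01010 had 63, 157 and 3 and 140, 124 and 5 counts in leaf. In EC they had 0, 5 and 0 and 2, 0 and 4 counts. Neither was tested with all libraries, and without leaf replicate 3 their log2 fold changes were −6.24 and −6.24 (adjusted p = 9.07e-04 and 4.88e-05, edgeR). VIT_216s0100g01040, with 35, 41 and 5 counts in leaf and 2, 4 and 2 in EC, had −4.05 in that fit (adjusted p = 1.32e-04, edgeR).

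Among the last 9 members of the cluster were some with more reads in EC and some with almost none. VIT_216s0100g01150 had 33, 31 and 1 counts in leaf and 1, 0 and 0 in EC, a ratio of 76.5 (95% exact interval 13.3 to 3068, counting error only), and VIT_216s0100g01120 had 27, 20 and 1 in leaf and 0, 0 and 3 in EC, a ratio of 18.8 (6.07 to 94.5). VIT_216s0100g01170 had 382, 279 and 46 counts in leaf and 53, 58 and 68 in EC, or 16.2, 12.7 and 3.50 RPM against 2.35, 2.60 and 2.81 RPM. All leaf libraries lay above EC, in RPM leaf replicate 3 by little. Its log2 fold change was −2.43 (standard error 0.45, adjusted p = 0.00727, edgeR), or −2.75 without leaf replicate 3 (adjusted p = 1.39e-05, edgeR). This member took 31.2%, 29.0% and 31.3% of the cluster's counts in the EC replicates, and 13.8%, 10.8% and 16.2% in leaf replicates 1, 2 and 3. Pooled over EC the share was 30.5% (95% Wilson interval 26.9% to 34.3%), and over leaf replicates 1 and 2 it was 12.3% (11.5% to 13.2%). These intervals cover counting error only.

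VIT_216s0100g01070 had 112, 32 and 35 counts in leaf and 19, 13 and 15 in EC. Of the chromosome 16 members with at least 10 leaf counts it had the highest ratio of leaf replicate 3 to the other leaf libraries. This ratio was 0.861, against a median of 0.644 over all features with as many leaf counts. Its 2.67 RPM in leaf replicate 3 lay between the other leaf libraries. Its log2 fold change was −2.58 (standard error 0.52, adjusted p = 0.00958, edgeR), and it did not pass without EC replicate 2 (adjusted p = 0.0504, edgeR) or 3 (0.0514). It was −2.45 without leaf replicate 3 (adjusted p = 0.00515, edgeR). VIT_216s0100g01130 had 80, 81 and 9 counts in leaf and 5, 9 and 15 in EC, with a log2 fold change of −3.00 (standard error 0.63, adjusted p = 0.0107, edgeR), and did not pass without EC replicate 2 (adjusted p = 0.0545, edgeR). That change was −3.34 without leaf replicate 3 (adjusted p = 1.92e-04, edgeR). VIT_216s0100g01160 had 49, 46 and 3 counts in leaf and 18, 19 and 11 in EC. There, leaf replicate 3 (0.229 RPM) lay below every EC library. Its log2 fold change of −1.44 (standard error 0.66) did not pass (adjusted p = 0.115, edgeR), but without leaf replicate 3 it was −1.84 (adjusted p = 0.00199, edgeR). VIT_216s0100g01100 was the other tested member that was not called, at −1.20 (adjusted p = 0.302, edgeR). Its counts were 24, 23 and 0 in leaf and 12, 10 and 5 in EC, and without leaf replicate 3 it was called as well, at −1.65 (adjusted p = 0.0108, edgeR).

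**Figure D3:**
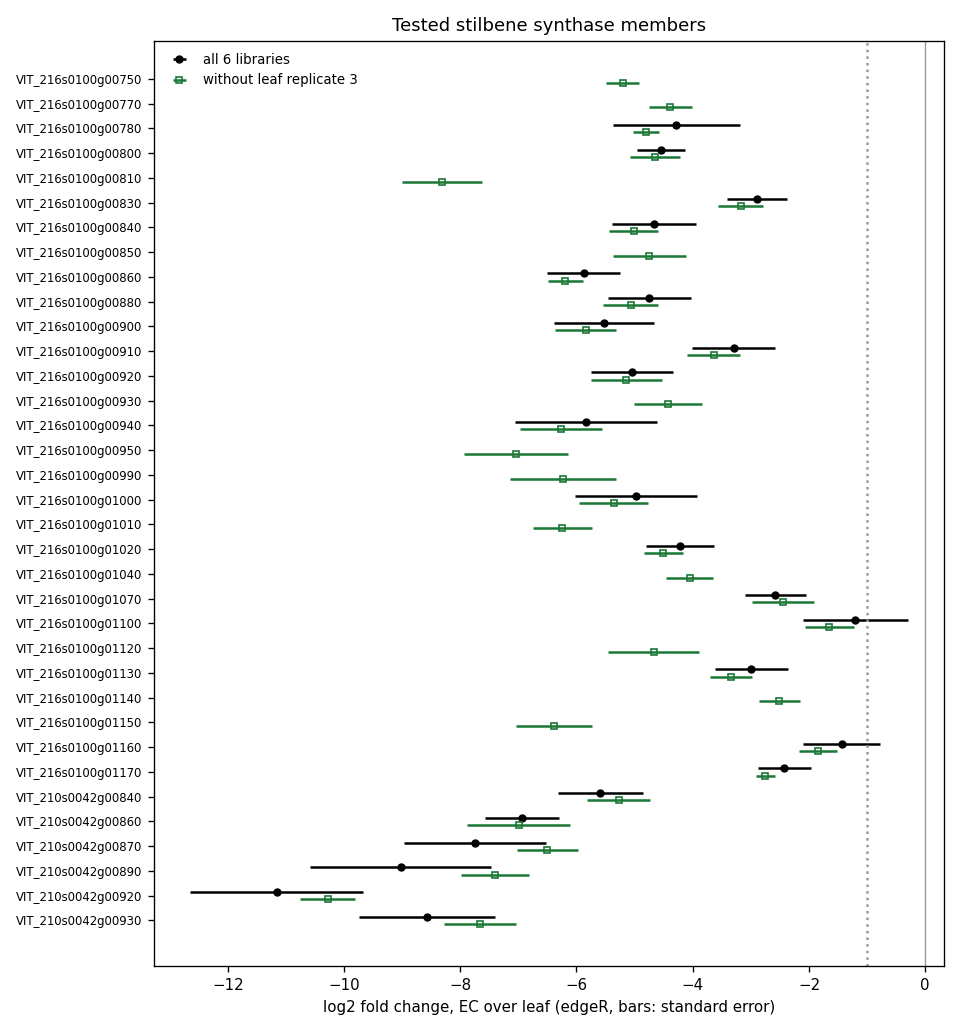
Log2 fold change of EC over leaf for each tested member, with its standard error, from edgeR with all 6 libraries (filled circles) and without leaf replicate 3 (open squares); the dotted line marks a 2-fold fall. With all libraries 17 chromosome 16 and 6 chromosome 10 members were tested, and every estimate is below 0.

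Split by identifier into 4 stretches of 8 or 9 members, a division made after the values had been seen, the cluster showed its smallest ratio of leaf to EC at its end. Leaf replicates 1 and 2 together were 21.7-fold above EC for the 9 members from VIT_216s0100g00750 (95% exact interval 17.8 to 26.7, counting error only). The ratio was 31.1 (24.0 to 41.0) for the next 9 members and 29.7 (23.3 to 38.5) for the 8 after them. For the last 9, from VIT_216s0100g01070 to VIT_216s0100g01170, it was 5.49 (4.88 to 6.20). Ratios of leaf replicate 3 to EC were lower, at 2.19, 7.02, 4.88 and 1.45 from the first stretch to the last. These ratios are in RPM, and those of leaf replicate 3 would be larger over library sizes scaled by TMM factors.

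**Figure D4:**
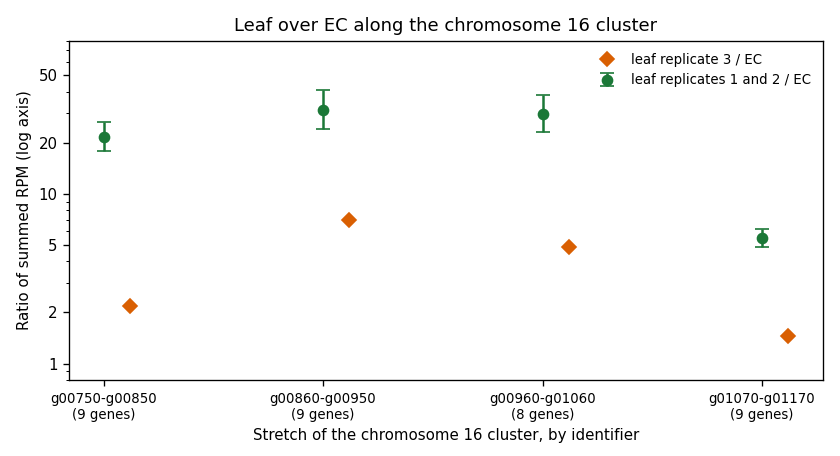
Ratio of summed RPM in leaf to that in EC (log axis) for 4 stretches of the chromosome 16 cluster in identifier order; circles with 95% exact counting intervals compare leaf replicates 1 and 2 with EC, and diamonds compare leaf replicate 3 with EC. The ratio of leaf replicates 1 and 2 to EC is 21.7 to 31.1 in the first 3 stretches and 5.49 in the last.

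In the chromosome 10 cluster, counts were found for 9 of the 10 members. VIT_210s0042g00850 had none. The leaf libraries lay above the EC libraries without overlap for 8 of the 10 members, against 21.9% of all features with a count. Leaf replicates 1 and 2 both lay above every EC library for 9 of the 10 (background 34.9%). With no filter on low counts, 7 of the 9 members with a count were called lower in EC, against 21.8% of all features. Their median log2 fold change was −6.92, or −5.56 with the members at 0 counts in EC set at their bound. With the filter, 6 were tested and 6 were called lower (background 25.1%), but with at most 3 counts in any EC library they passed it through leaf alone, which fixed their direction. The median of these 6 was −8.15 (−7.68 with zeros at their bound), and −7.20 (−6.81) without leaf replicate 3, where the same 6 members were called (background 29.4%). The number called higher in EC was 0, also at an unadjusted p under 0.05 and with DESeq2, which called 8 of 8 tested members lower (background 27.6%). Such low EC counts left almost no room for a call of higher in EC under any method. These numbers are therefore a description and are not read against the background.

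VIT_210s0042g00920 had 142, 132 and 226 counts in leaf and 0 in every EC library. With 3 counts over the EC libraries together as the floor (0.0434 RPM), it was at least 196-fold lower in EC, or at least 138.5-fold without leaf replicate 3. Such bounds take the leaf counts as they stand and leave out their counting error. The fitted log2 fold change of a gene at 0 depends on the prior count and is not given as a bound; the adjusted p was 0.00798 with and 5.85e-05 without that library (edgeR). VIT_210s0042g00860 was also at 0 in EC. It had 16, 12 and 7 leaf counts, and the same floor gave a fall of at least 13.7-fold (adjusted p = 0.00290, edgeR), or 14.2-fold without leaf replicate 3 (adjusted p = 0.00179, edgeR). VIT_210s0042g00930 had 96, 60 and 118 counts in leaf and a single count in EC, a ratio of 323 (95% exact interval 57.4 to 12780, counting error only), with a log2 fold change of −8.57 and a standard error of 1.17 (adjusted p = 0.00258, edgeR). Over leaf replicates 1 and 2 the ratio was 236.5 (41.8 to 9400) and the log2 fold change −7.66 (adjusted p = 4.82e-05, edgeR). VIT_210s0042g00890 had 74, 56 and 194 counts in leaf and a single count in EC, a ratio of 381 (68.0 to 15110), and −9.02 with a standard error of 1.56 (adjusted p = 0.00553, edgeR). Leaf replicate 3 gave 194 of its 324 leaf counts, and without that library the ratio was 197 (34.8 to 7843) and the log2 fold change −7.40 (adjusted p = 4.53e-05, edgeR).

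VIT_210s0042g00870 had 99, 70 and 172 counts in leaf and 0, 2 and 1 in EC. The ratio was 134 (95% exact interval 45.4 to 652) and the log2 fold change −7.74 with a standard error of 1.22 (adjusted p = 0.00408, edgeR). Leaving out leaf replicate 3 gave a ratio of 85.4 (28.7 to 418) and a log2 fold change of −6.50 (adjusted p = 4.79e-05, edgeR). VIT_210s0042g00840 was the chromosome 10 member with the most EC counts, 0, 2 and 3, beside 60, 54 and 39 in leaf. Its leaf level varied little, at 2.54, 2.46 and 2.97 RPM, and its log2 fold change was −5.59 with a standard error of 0.72 (adjusted p = 0.00218, edgeR), or −5.28 without leaf replicate 3 (adjusted p = 1.47e-04, edgeR). VIT_210s0042g00880 and VIT_210s0042g00910 did not pass the filter. They had 6, 4 and 12 and 5, 2 and 11 counts in leaf and 0 in EC. With the same floor of 3 EC counts the bounds were 8.63-fold and 7.06-fold lower. Without leaf replicate 3 they were 5.05-fold and 3.54-fold, resting on 10 and 7 leaf counts whose counting error is left out. With no filter on low counts, VIT_210s0042g00880 was called and VIT_210s0042g00910 was not (adjusted p = 0.0395 and 0.0592, edgeR). VIT_210s0042g00900 had 1, 1 and 0 counts in leaf and none in EC, too few for a ratio.

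Leaf replicate 3 deviated in opposite directions in the 2 clusters. Of the 30 chromosome 16 members with at least 10 leaf counts, 29 had their lowest leaf level in leaf replicate 3 and 0 their highest. Of the 8 such chromosome 10 members, 7 had their highest leaf level there and 1, VIT_210s0042g00860, its lowest. These ranks are in RPM. Over library sizes scaled by TMM factors, VIT_210s0042g00860 would have its highest leaf level in leaf replicate 3 as well. Of all features with as many leaf counts, 67.0% had their lowest leaf level in leaf replicate 3 and 27.4% their highest. These shares are also in RPM and depend on the scaling, given the low TMM factor of that library. Over the same members the median ratio of leaf replicate 3 to the mean of the other leaf libraries was 0.188 on chromosome 16 (30 members, 0 to 0.861). On chromosome 10 it was 3.21 (8 members, 0.871 to 5.54). The median over all such features was 0.644. Within the chromosome 10 cluster the first detected members moved least, with ratios of 1.19 for VIT_210s0042g00840 and 0.871 for VIT_210s0042g00860, whereas VIT_210s0042g00870 and VIT_210s0042g00890 had 3.55 and 5.20. Over library sizes scaled by TMM factors, the ratio of the sums was 0.270 on chromosome 16 and 4.48 on chromosome 10, so both directions were kept. With a single library these ratios carry no test.

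**Figure D5:**
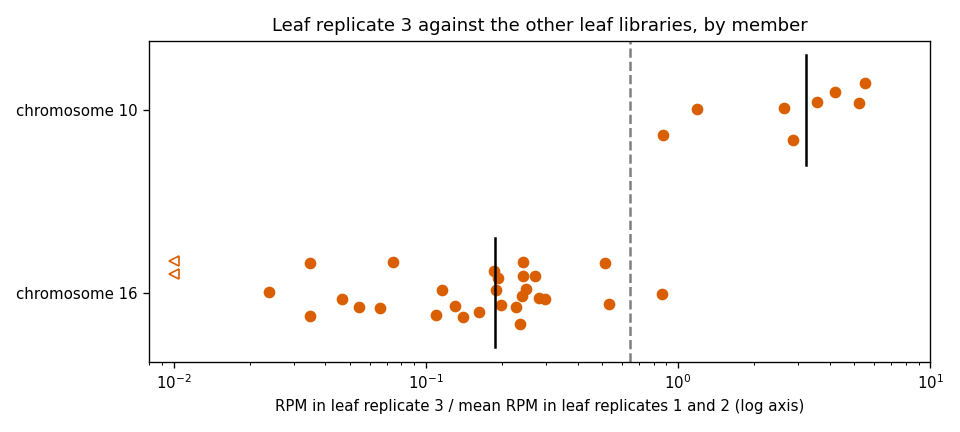
RPM in leaf replicate 3 divided by the mean of leaf replicates 1 and 2 (log axis) for each member with at least 10 leaf counts; bars are medians (0.188 and 3.21), the dashed line is the median over all features (0.644), and open triangles at the left edge are members at 0 in leaf replicate 3. Vertical scatter within a cluster only separates the points.

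Genes beside the clusters were called in both directions. Of the 191 other identifiers with the same chromosome and scaffold prefixes, 116 were tested, 27 were called lower and 21 higher in EC, and their median log2 fold change was −0.14. The shares pooled over both blocks, 23.3% and 18.1%, were near those of all features (25.1% and 17.3%), but the blocks differed. Of the 59 tested neighbours on chromosome 16, 15.25% were called lower and 20.3% higher (median −0.04). Of the 57 on chromosome 10, 31.6% were called lower and 15.8% higher (median −0.32). Leaving out leaf replicate 3, 32 of 120 were called lower and 30 higher. At the start of the chromosome 16 range, VIT_216s0100g00740, just outside it, had 53, 59 and 299 counts in leaf and 63, 43 and 85 in EC, against 136, 154 and 2 and 6, 4 and 4 for VIT_216s0100g00750 just inside. At its end, VIT_216s0100g01170 was followed in the table by VIT_216s0100g01210, with 120, 113 and 216 counts in leaf and 75, 83 and 103 in EC. Both outer genes were highest in leaf replicate 3, and neither passed (adjusted p = 0.122 and 0.0671, edgeR). Their log2 fold changes without leaf replicate 3 were −0.11 and −0.71 (adjusted p = 0.739 and 0.00810, edgeR), both short of 2-fold. On chromosome 10, VIT_210s0042g00835, just before the range, had at most 2 counts in any library, and VIT_210s0042g00940, just after it, had 104, 130 and 2 counts in leaf and 10, 18 and 10 in EC. The latter had a log2 fold change of −2.97 (standard error 1.01) and an adjusted p of 0.0515 with all libraries, and −3.48 with an adjusted p of 9.77e-05 without leaf replicate 3 (edgeR).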

How the data were processed

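RNA of 3 leaf and 3 EC samples was sequenced as stranded read pairs. After tRNA and rRNA reads had been discarded, the authors aligned the pairs to the PN40024 genome with HISAT2, keeping several positions per read, and used TEtranscripts for counting. The deposited values are raw counts, not normalised, for 31843 genes and 232 TE families. Before their own tests, the authors took out the counts of genes homologous to chloroplast psbA and rbcL. Here the deposited counts were used as they stand. Whether counting used strand is not given in the sources used here. RPM were counts per 1000000 counted reads of the library. Tests used edgeR 4.0.16 in R 4.3.3 with TMM factors, the filterByExpr filter (minimum count 10, minimum total 15), robust glmQLFit and glmQLFTest, and Benjamini-Hochberg adjustment over 21550 features, after the code was tested on simulated data. Calls needed an adjusted p under 0.05 and a 2-fold change. The size of each log2 fold change over the root of its F statistic gave its standard error. The common biological coefficient of variation was 0.419. TMM factors were 0.961, 0.974 and 0.658 in leaf and 1.15, 1.19 and 1.19 in EC, in replicate order.

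The members and lists were chosen with earlier results of these data known. Named members were the 6 with the highest mean RPM in each tissue, the 5 with the largest change in each direction among those passing, every chromosome 10 member with a count, and up to 6 whose call changed without leaf replicate 3; members outside this rule (VIT_216s0100g00870, VIT_216s0100g00970, VIT_216s0100g01060, VIT_216s0100g01080, VIT_216s0100g01100, VIT_216s0100g01120, VIT_216s0100g01150 and VIT_210s0042g00850) and the bordering genes were named after their values were seen. Intervals at 95% were computed with scipy 1.17.1 on pooled counts. Alternatives were DESeq2 1.42.0, DESeq2 size factors, library sizes alone, limma-voom (limma 3.58.1), other filters, a replicate block, no fold limit, other denominators and each library left out. limma-voom with sample weights was added after the data were seen, as were all alternatives for the neighbouring genes. Identifiers matching the reference gene table numbered 0, so other genes of the pathway, tissue markers and sequences were not analysed here. Figures were drawn with matplotlib 3.10.9.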

Additional observations from a re-analysis of the deposited data

How the results depend on the processing

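The number of chromosome 16 members called, 15, moved to 28 with DESeq2, to 26 with no filter on low counts and to 2 where 10 counts were required in every library. It ranged from 14 to 29 with single libraries left out, and the 29 was without leaf replicate 3. The chromosome 10 number, 6, stayed at 6 with each single library left out and was 5 to 8 under the other alternatives, apart from the requirement of 10 counts in every library, under which no member could be tested. That requirement also moved the number of neighbouring genes called from 48 to 25, and with single libraries left out it was 37 to 62. The summed ratio of EC over leaf was 0.0991 on chromosome 16 and 0.00441 on chromosome 10. With single libraries left out it was 0.0722 to 0.122 and 0.00320 to 0.00743, and over TMM-scaled library sizes 0.0784 and 0.00281. Without leaf replicate 3 the chromosome 10 ratio was 0.00743. Over the 12 tested named members, 145 of 158 refits kept direction and side of the threshold, 11 fell short of it, 2 passed it anew and 0 reversed. No pairing of samples by replicate number was seen. Correlations of same-numbered deviations were −0.0125, 0.0965 and 0.0961, and those of unlike-numbered ones ran from −0.104 to 0.102. With 3 libraries per tissue, and leaf replicate 3 apart, these correlations cannot exclude a pairing. With the replicate block 12 chromosome 16 and 5 chromosome 10 members were called. In that fit VIT_216s0100g00780, VIT_216s0100g01130 and VIT_210s0042g00860 did not pass (adjusted p = 0.0629, 0.0537 and 0.0512, edgeR). The median of all features moved from −0.04 to 0.41 with library sizes alone, which called 15 and 6 members as well. Depth limits the members at or near 0 in EC, for which only bounds or wide intervals can be given.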

Other observations

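A gene shortly after the chromosome 10 range, VIT_210s0042g00960, was singled out after its values had been seen. It had 69, 75 and 1036 counts in leaf replicates 1, 2 and 3, or 2.92, 3.42 and 78.9 RPM, and 0 counts in each EC library. Like 7 of the chromosome 10 members it had its highest leaf level in leaf replicate 3. Its adjusted p was 0.0481 with all libraries and 1.60e-04 without leaf replicate 3 (edgeR). On the other side of the range, VIT_210s0042g00830 went the opposite way, with 125, 181 and 38 counts in leaf and 1111, 1136 and 1470 in EC, a log2 fold change of 2.88 (standard error 0.29, adjusted p = 0.00103, edgeR). No table used here names either gene.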
